A study of Mus musculus with 6 samples.

Results

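Respiratory chain assembly factors are proteins that build the 5 complexes of oxidative phosphorylation without staying in them. A list of 38 such genes was chosen by name, and 36 of them were measured by a probe set that the platform annotation assigns to 1 gene. These are 13 factors of complex I, 3 of complex II, 5 of complex III, 13 of complex IV and 2 of complex V, out of 22180 genes measured in this way. The probe sets of Sco2 and Cox11 are annotated to a neighbouring gene as well (Tymp and Tom1l1), so that neither gene was given a value. Sdhaf1 was the only factor with more than 1 such probe set, and its brighter one was used. The mean signal of 34 of the 36 factors lay above the median signal of all genes.

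The cells were iBACs (immortalized brown adipogenic cells), a mouse line that differentiates into brown adipocytes. Aspa knock-down cells (siAspa) carried a lentiviral shRNA against Aspa, the enzyme that splits N-acetylaspartate, and control cells (ntc) carried a non-targeting construct, with 3 Affymetrix arrays each. Both lines were infected before confluence and selected with G418. They were then induced with IBMX, dexamethasone, insulin, triiodothyronine and indomethacin, kept in insulin and triiodothyronine, and harvested on day 7. A single shRNA clone is named, so that the loss of Aspa and any other difference between the 2 lines cannot be told apart. The triplicates are described as different passages of these lines, so that a p-value reflects how these arrays vary. In bulk RNA, fewer cells of a type and less RNA per cell cannot be told apart. All values are log2 signals after RMA, and a log2 fold change, or difference, is siAspa minus ntc on the log2 scale. Aspa, the targeted gene, read 7.02, 6.97 and 7.44 in siAspa, against 9.07, 8.81 and 8.59 in ntc. The groups were separate, with siAspa at 31.2% of ntc and an adjusted p of 0.0343 in limma (log2 fold change -1.68, standard error 0.17).

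Complex I passes electrons from NADH to ubiquinone and is assembled from modules that each need their own factors. Complex III carries hemes and an iron-sulfur cluster and complex IV hemes and copper, which depend on dedicated factors, and complex II needs factors for its flavin and iron-sulfur clusters. Complex V, the ATP synthase, has chaperones for its catalytic head. Brown adipocytes are rich in mitochondria and in respiratory chain, although their uncoupling protein lets much of the proton gradient run down as heat.

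No assembly factor passed the test, while 10 of the 36 had an unadjusted p under 0.05 and all 10 of these were lower in siAspa. The test was limma with Benjamini-Hochberg adjustment over all 41345 probe sets. At an adjusted p under 0.05, 0 of the 36 factors were lower and 0 higher, beside 0.0726% of all probe sets lower and 0.116% higher, and the lowest adjusted p of a factor was 0.164. At an unadjusted p under 0.05, 10 factors (27.8%) lay lower and 0 higher, beside 6.17% lower and 6.87% higher among all genes. For the same 10 factors every siAspa array lay below every ntc array, beside 9.99% of all genes, and no factor had every siAspa array above every ntc array, beside 12.6% of all genes. The median log2 fold change of the 36 factors was -0.09 and that of all genes 0.02, and 27 factors (75%) lay below 0, beside 45.5% of all genes. The median was -0.04 without the first siAspa array and -0.16 without the third, and the factors below 0 numbered 21 to 30 when 1 array was left out. The range ran from -0.43 for Ecsit to 0.21 for Sdhaf4. The 10 factors were Ecsit, Ndufaf4, Foxred1 and Acad9 of complex I, Uqcc1 of complex III, Coa5, Cox15, Cox19 and Cox10 of complex IV and Atpaf2 of complex V. Their siAspa signal was 74.4% to 86.3% of the ntc signal, with adjusted p between 0.164 and 0.359. The count of 10 depended on single arrays. It was 5 without the second siAspa array, 6 without the first siAspa array and 6 without the first ntc array, and 12 without the third siAspa array. Ecsit, Ndufaf4, Cox15, Coa5 and Atpaf2 had an unadjusted p under 0.05 in all 6 fits that left out 1 array.

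**Figure D1:**
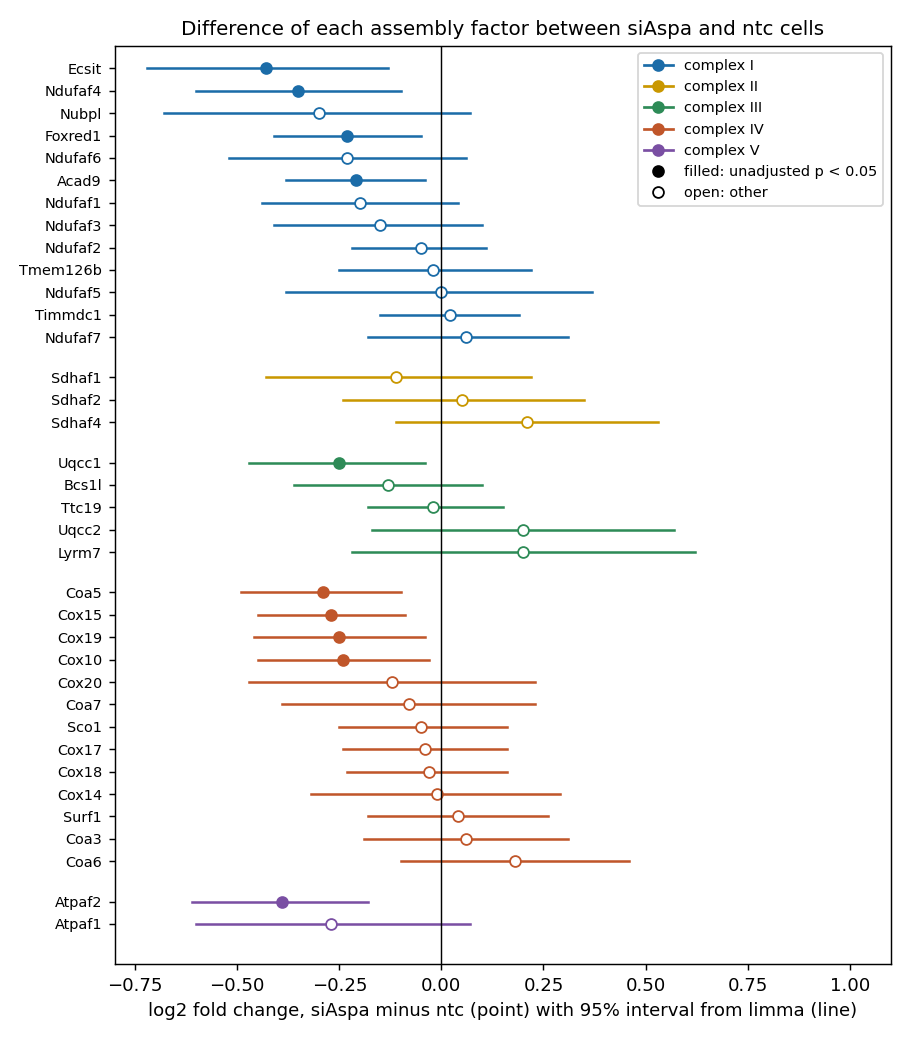
Log2 fold change (siAspa minus ntc, horizontal axis) of each of the 36 measured assembly factors with its 95% interval from limma, ordered by complex. Filled points have an unadjusted p under 0.05, and all 10 of them lie left of 0.

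Stretches of promoter are shown for 5 factors, as examples of 3 short motifs of transcription factors known to act on nuclear genes of mitochondria. RefSeq windows of 300 bases (250 before and 50 after the annotated start, build GRCm38.p6) were given for 31 of the 36 measured factors. The letters CCGGAAG, the core bound by ETS factors such as GABPA, occurred on either strand in 12 of the 31 (38.7%), beside 9.93% of all 27025 genes with a window and 12.9% of 17492 protein-coding genes. The NRF1-type core GCGCATGC occurred in 3 of 31 (9.68%, beside 3.05% of all genes and 3.94% of protein-coding genes). The YY1-type letters AAGATGGC occurred in 5 of 31 (16.1%, beside 3.19% and 3.57%). The cAMP response element TGACGTCA occurred in 3 of 31 (9.68%, beside 2.03% of all genes and 2.54% of protein-coding genes). The letters AAGGTCA, the half-site of estrogen-related receptors, occurred in 0 of 31, beside 5.38% of all genes and 4.73% of protein-coding genes. In 11 of the 31 none of the 5 motifs occurred. Among the 9 lower factors with a window the ETS letters occurred in 3 (Cox10, Cox15 and Ecsit), and among the 22 others in 9. The stretches end at the latest at the annotated start, run 5′ to 3′ on the strand of the gene and show the motif in capitals.
Cox10, chr11:64079473-64079523, minus strand, ETS-type, lower: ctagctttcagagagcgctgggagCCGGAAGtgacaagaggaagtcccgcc
Bcs1l, chr1:74588218-74588272, plus strand, ETS-type: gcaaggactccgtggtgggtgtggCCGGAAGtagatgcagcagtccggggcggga
Sco1, chr11:67052601-67052655, plus strand, ETS-type read on the opposite strand: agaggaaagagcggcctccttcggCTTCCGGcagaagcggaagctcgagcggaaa
Ndufaf4, chr4:24897946-24898001, plus strand, NRF1-type, lower: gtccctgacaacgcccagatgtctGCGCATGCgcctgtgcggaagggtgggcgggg
Cox20, chr1:178319054-178319109, plus strand, YY1-type: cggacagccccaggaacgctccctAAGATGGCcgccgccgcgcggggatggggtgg
The NRF1-type core of Ndufaf4 overlaps its own copy on the opposite strand. A match of letters is a description of the sequence and does not show that a factor binds there.

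Of the 13 factors of complex I, 4 (30.8%) lay lower at an unadjusted p under 0.05, beside 6.17% of all genes. A difference below 0 was found for 11 (84.6%), beside 45.5% of all genes, and the median was -0.20. Ecsit, which belongs to the intermediate assembly complex on the membrane arm and is also an adaptor in Toll-like receptor signalling, read 8.52, 8.39 and 8.84 on the siAspa arrays, against 9.03, 8.96 and 9.03 on the ntc arrays. The ntc arrays lay within a narrow band and all siAspa arrays below it, the third siAspa array nearest to it. The difference was -0.43 with a standard error of 0.12 and an adjusted p of 0.253 in limma. Acad9, an acyl-CoA dehydrogenase relative that works in the same complex, read 8.85, 8.81 and 8.88 in siAspa, against 9.07, 9.09 and 9.01 in ntc. Both groups were tight and did not overlap (log2 fold change -0.21, standard error 0.07, adjusted p = 0.32). The other partners in this complex had an unadjusted p over 0.05. Ndufaf1 differed by -0.20 (95% interval -0.44 to 0.04), and its siAspa value of 8.62 on the third array overlapped the lowest ntc value of 8.57. Tmem126b and Timmdc1, both membrane proteins, had log2 fold changes of -0.02 (95% interval -0.25 to 0.22) and 0.02 (95% interval -0.15 to 0.19).

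Ndufaf4, an early factor that works with Ndufaf3 on the quinone-binding module and whose promoter stretch with the NRF1-type core is printed above, read 9.10, 9.12 and 9.42 in siAspa, against 9.57, 9.53 and 9.59 in ntc. All siAspa arrays lay below the ntc arrays, again with the third one closest (log2 fold change -0.35, standard error 0.10, adjusted p = 0.268). Its partner Ndufaf3 had a smaller difference of -0.15 (95% interval -0.41 to 0.10) and overlapping groups. Foxred1, an oxidoreductase-like factor that binds FAD, read 8.98, 8.93 and 9.05 in siAspa, against 9.29, 9.20 and 9.19 in ntc. The groups were separate (log2 fold change -0.23, standard error 0.08, adjusted p = 0.304). Nubpl, which serves the iron-sulfur clusters of complex I, and Ndufaf6, an early factor, had log2 fold changes of -0.30 and -0.23 with wide intervals (-0.68 to 0.07 and -0.52 to 0.06).

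Ndufaf7, a methyltransferase, had the highest log2 fold change of complex I. It read 9.08, 9.26 and 9.38 in siAspa, against 9.27, 9.17 and 9.08 in ntc, which overlapped (log2 fold change 0.06, standard error 0.10, adjusted p = 0.874). Ndufaf5, the hydroxylase for Ndufs7, had a log2 fold change that rounds to 0.00 with a 95% interval of -0.38 to 0.37. Ndufaf2, a late chaperone related to the subunit Ndufa12, had one of -0.05 (95% interval -0.22 to 0.11).

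**Figure D2:**
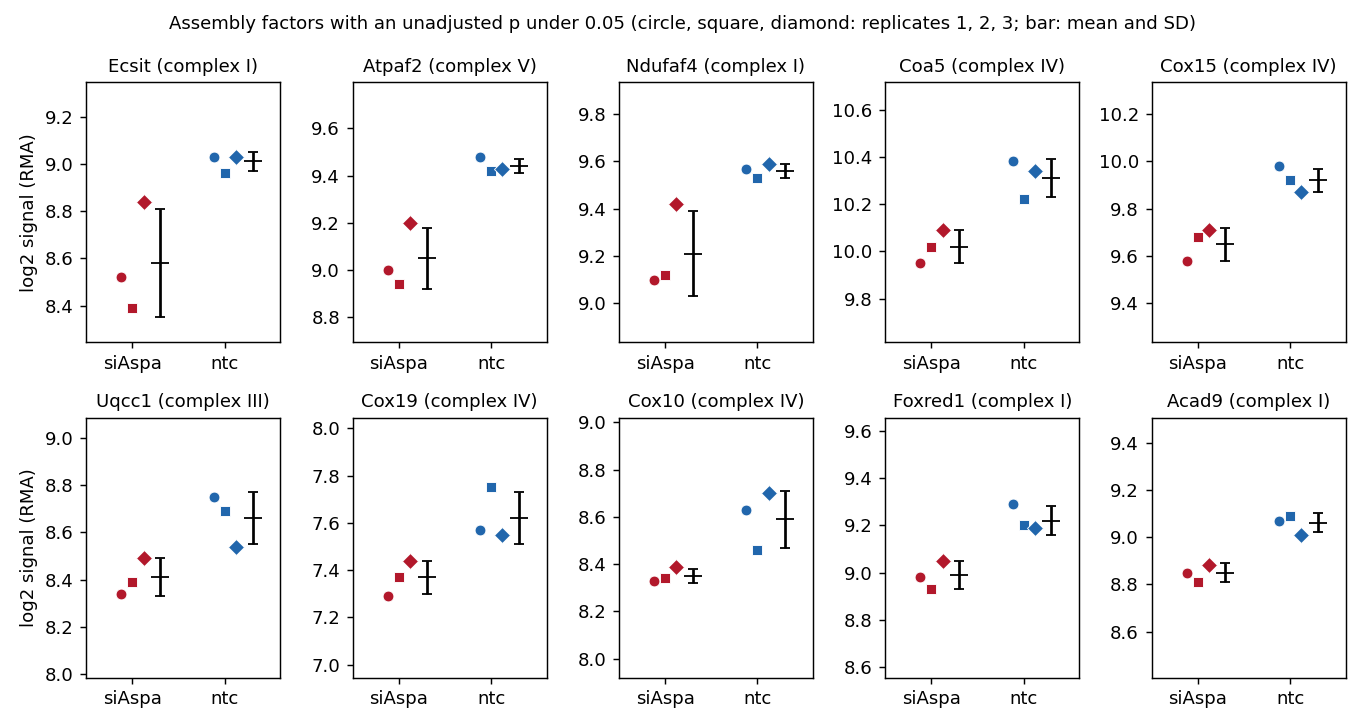
Log2 signal (vertical axis, each panel spanning the same range) of the 10 assembly factors with an unadjusted p under 0.05 on the 3 siAspa and 3 ntc arrays, with mean and SD. In every panel the siAspa arrays lie below the ntc arrays, and for Ecsit the third siAspa array at 8.84 lies well above the other siAspa arrays.

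Within complex IV, both enzymes of heme a synthesis were lower at an unadjusted p under 0.05. Cox10, which makes heme O by adding a farnesyl group, read 8.33, 8.34 and 8.39 in siAspa, against 8.63, 8.46 and 8.70 in ntc (log2 fold change -0.24, standard error 0.09, adjusted p = 0.359). Cox15, which converts heme O to heme A, read 9.58, 9.68 and 9.71 in siAspa, against 9.98, 9.92 and 9.87 in ntc (log2 fold change -0.27, standard error 0.08, adjusted p = 0.251). For both enzymes the groups did not overlap. In the 6 fits that left out 1 array, Cox15 kept an unadjusted p under 0.05 in all 6 and Cox10 in 2. Surf1, an early factor linked to heme a delivery, had a log2 fold change of 0.04 (95% interval -0.18 to 0.26).

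The copper branch of complex IV gave mixed values. Cox19, a small intermembrane space protein of copper delivery, read 7.29, 7.37 and 7.44 in siAspa, against 7.57, 7.75 and 7.55 in ntc (log2 fold change -0.25, standard error 0.09, adjusted p = 0.34). Cox17, the copper chaperone that supplies the later steps, and Sco1, which hands copper to the subunit COX2, had log2 fold changes of -0.04 (95% interval -0.24 to 0.16) and -0.05 (95% interval -0.25 to 0.16). Coa6, another factor of copper delivery to COX2, had the highest value of complex IV. It read 8.51, 8.64 and 8.87 in siAspa, against 8.61, 8.51 and 8.36 in ntc, with overlapping groups (log2 fold change 0.18, standard error 0.12, adjusted p = 0.621). Whether Cox19 and Coa6 differ from each other in their response was not tested.

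Coa5, a complex IV factor of the same cysteine-motif family as Cox19, had the lowest p of complex IV. It read 9.95, 10.02 and 10.09 in siAspa, against 10.38, 10.22 and 10.34 in ntc, and the groups were separate (log2 fold change -0.29, standard error 0.08, adjusted p = 0.241). Cox14 and Coa3, which regulate the synthesis and stability of COX1, had log2 fold changes of -0.01 (95% interval -0.32 to 0.29) and 0.06 (95% interval -0.19 to 0.31). Cox18 and Cox20, the insertase and a chaperone of COX2, had log2 fold changes of -0.03 (95% interval -0.23 to 0.16) and -0.12 (95% interval -0.47 to 0.23). Coa7 had one of -0.08 (95% interval -0.39 to 0.23). Of the 13 measured factors of complex IV, 4 (30.8%) lay lower at an unadjusted p under 0.05, beside 6.17% of all genes. A difference below 0 was found for 10 (76.9%), beside 45.5% of all genes, and the median was -0.05.

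The chaperones of complex V both lay below the control level on average. Atpaf2, which binds the alpha subunit of the catalytic head, had the lowest p of all 36 factors. It read 9.00, 8.94 and 9.20 in siAspa, against 9.48, 9.42 and 9.43 in ntc. The siAspa arrays were separate from the ntc arrays, which lay within a narrow band (log2 fold change -0.39, standard error 0.09, adjusted p = 0.164, siAspa at 76.2% of ntc). Over the alternative settings its adjusted p ranged from 0.053 to 0.454. Atpaf1, which binds the beta subunit, read 7.46, 7.83 and 7.89 in siAspa, against 8.08, 8.09 and 7.81 in ntc. The groups overlapped because the third ntc array lay below 2 siAspa arrays (log2 fold change -0.27, standard error 0.14, adjusted p = 0.533).

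Among the 5 factors of complex III, Uqcc1 alone (20%, beside 6.17% of all genes) was lower at an unadjusted p under 0.05. Uqcc1, which acts on cytochrome b, read 8.34, 8.39 and 8.49 in siAspa, against 8.75, 8.69 and 8.54 in ntc (log2 fold change -0.25, standard error 0.09, adjusted p = 0.343). Its partner Uqcc2 read 8.38, 8.38 and 8.44 in siAspa, against 8.37, 8.41 and 7.84 in ntc, and the third ntc array lay apart from the other 5 arrays (log2 fold change 0.20, standard error 0.16, adjusted p = 0.7). Bcs1l, the ATPase that carries the Rieske iron-sulfur protein into complex III, read 8.46, 8.41 and 8.60 in siAspa, against 8.74, 8.63 and 8.50 in ntc (log2 fold change -0.13, standard error 0.10, adjusted p = 0.673). Lyrm7, which holds the Rieske protein before this step, differed by 0.20 with a 95% interval of -0.22 to 0.62. Ttc19, which clears fragments of the Rieske protein, differed by -0.02 (95% interval -0.18 to 0.15).

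None of the 3 factors of complex II had an unadjusted p under 0.05, beside 6.17% lower and 6.87% higher among all genes. Sdhaf4, the chaperone of flavin-loaded Sdha, had the highest log2 fold change of all 36 factors. It read 7.15, 6.96 and 7.44 in siAspa, against 6.86, 7.02 and 7.05 in ntc, and the second siAspa array lay among the ntc arrays (log2 fold change 0.21, standard error 0.13, adjusted p = 0.622). Sdhaf1, which serves the iron-sulfur clusters of Sdhb, read 7.15, 7.65 and 7.48 in siAspa, against 7.45, 7.61 and 7.54 in ntc (log2 fold change -0.11, standard error 0.14, adjusted p = 0.832). A second probe set of Sdhaf1 had a log2 fold change of -0.13. Sdhaf2, which promotes the attachment of FAD to Sdha, read 8.85, 8.86 and 8.93 in siAspa, against 8.97, 8.96 and 8.55 in ntc, and the third ntc array alone lay below all siAspa arrays (log2 fold change 0.05, standard error 0.13, adjusted p = 0.917).

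Beside 27 of the 36 factors and 45.5% of all genes, 65 of 74 (87.8%) measured nuclear-encoded subunits of complexes I to V had a difference below 0. Of these subunits, 36 (48.6%) had an unadjusted p under 0.05 and lay lower and 0 lay higher, beside 6.17% and 6.87% of all genes. After adjustment in limma 0 passed, and the median log2 fold change was -0.23. In complex II the 3 factors had a median of 0.05, or -0.08 without the third ntc array. All 4 subunits lay lower by unadjusted p, with a median of -0.36. Sdha, the flavin-carrying subunit that Sdhaf2 and Sdhaf4 serve, had the lowest p of these (log2 fold change -0.48, adjusted p = 0.11). In complex III the median was -0.02 for the 5 factors and -0.31 for 8 subunits, 5 of which lay lower. In complex IV it was -0.05 for the 13 factors and -0.23 for 14 subunits, 6 of which lay lower. In complex I the medians were closer, at -0.20 for the factors and -0.24 for the 32 subunits, of which 16 lay lower. In complex V the 2 factors had a median of -0.33 and the 16 subunits one of -0.15. The 16, and so the 74, include Atpif1, an inhibitor of the ATP synthase and not a subunit of it (difference 0.25). These medians are descriptions, and the difference between factors and subunits was not tested.

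**Figure D3:**
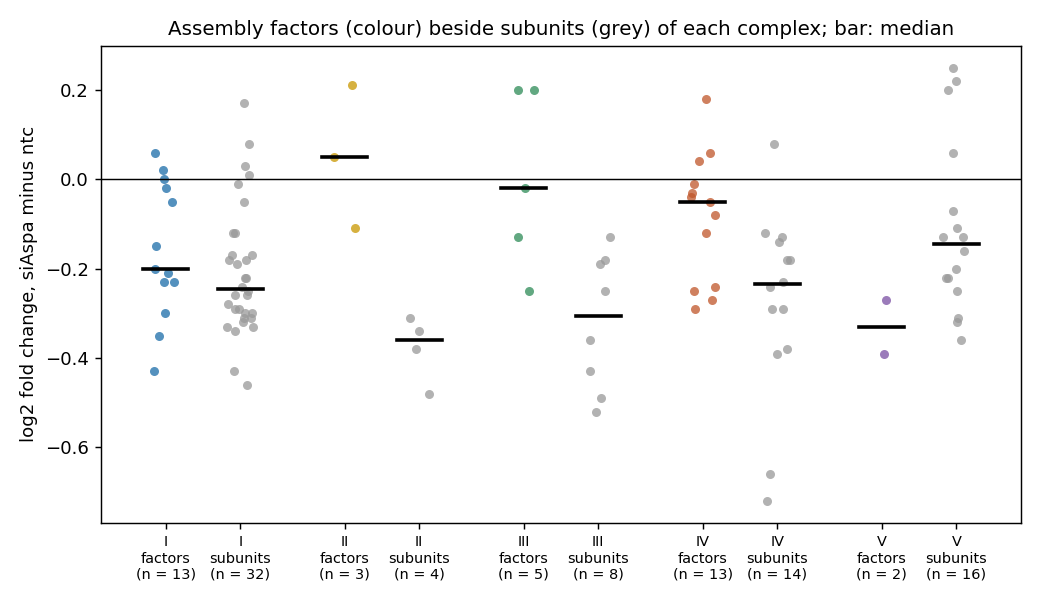
Log2 fold change (siAspa minus ntc, vertical axis) of each measured assembly factor (coloured) and each measured subunit (grey) of complexes I to V, with bars at the medians. The medians of complex II lie farthest apart, at 0.05 for its factors and -0.36 for its subunits. Without the third ntc array the median of its factors was -0.08. The points for subunits of complex V include the inhibitor Atpif1.

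A second list held 24 measured assembly factors outside the 36. By unadjusted p 7 (29.2%) lay lower and 1 (4.17%) higher, beside 6.17% and 6.87% of all genes. After adjustment in limma 0 passed, and the median was -0.12. The lowest p of this list belonged to Fmc1, a factor of complex V (difference -0.44, adjusted p = 0.102). Cox16 and Coa8, both factors of complex IV, followed with -0.40 and -0.37 (adjusted p = 0.229 and 0.232). Smim4, a small factor of complex III, was the 1 higher gene (difference 0.32, adjusted p = 0.359). Of 15 regulators of mitochondrial biogenesis, 6 (40%) lay lower and 0 higher by unadjusted p, beside 6.17% and 6.87% of all genes. None passed after adjustment, 8 differed by less than 0 and 7 by more, and the median was -0.03. Ppargc1b and Ppargc1a, coactivators of mitochondrial genes, differed by -0.69 (adjusted p = 0.0982) and -0.36 (adjusted p = 0.168). The mitochondrial transcription factor Tfb2m differed by -0.28 (adjusted p = 0.267).

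The third siAspa array held the highest siAspa value for 32 of the 36 factors (88.9%), beside 34.7% of all genes. The first siAspa array held the lowest for 25 of them (69.4%, beside 33.3%). The third ntc array held the lowest ntc value for 22 factors (61.1%, beside 35.3%). Among the subunits the third siAspa array was highest of the siAspa arrays for 64 of 74 (86.5%), and in the second list of factors for 21 of 24 (87.5%). The third ntc array was lowest of the ntc arrays for 56 subunits (75.7%) and for 18 factors of the second list (75%). The high place of the third siAspa array was not particular to the respiratory chain. The 11 measured general adipocyte markers, described below, were also all highest on the third siAspa array among the siAspa arrays. So were the brown adipocyte markers except Prdm16 and Dio2. The rest of the order differed in the general adipocyte markers. Among them the first siAspa array was lowest of its group only for Cebpa. The third ntc array was lowest of its group only for Fabp4, Adipoq and Retn. Relative to the mean of the ntc arrays, the median over the 36 factors was -0.21, -0.08 and 0.00 on the siAspa arrays, against 0.06, 0.01 and -0.06 on the ntc arrays, so that the third siAspa array lay within the range of ntc. Aspa itself was also highest on the third siAspa array and lowest on the third ntc array within each group. The part of residual Aspa in this order was not tested.

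**Figure D4:**
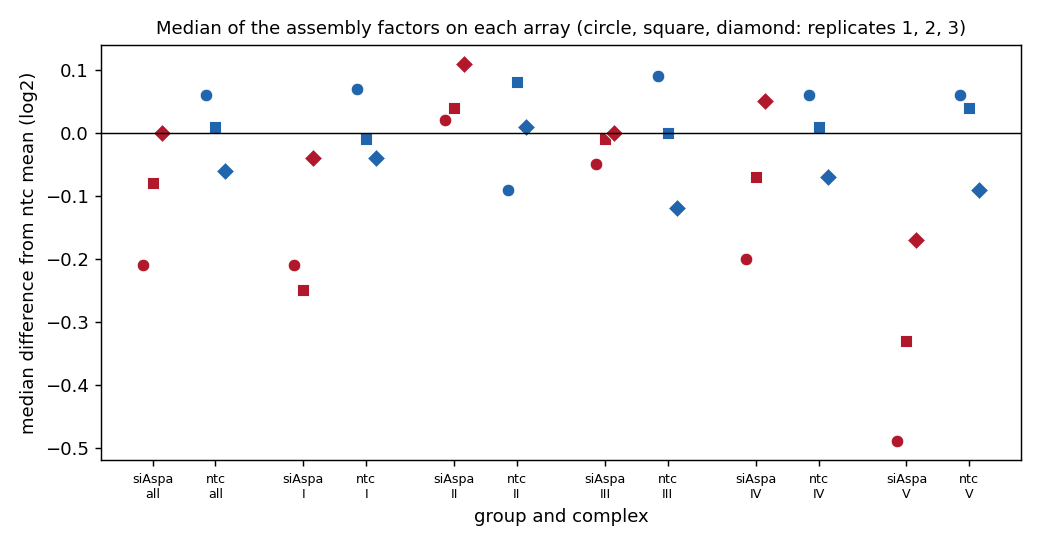
Median over the assembly factors of the difference from the ntc mean (vertical axis, log2) on each of the 6 arrays, for all 36 factors and by complex. Over all factors the third siAspa array stands at 0.00, above the other siAspa arrays at -0.21 and -0.08.

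Markers of other cells and states were read from lists on the same arrays, where 6.17% of all genes lay lower and 6.87% higher by unadjusted p. Of 9 measured brown adipocyte markers, Ucp1 and Otop1 fell in siAspa after adjustment, 8 lay lower by unadjusted p, and the median was -0.78. Cidea had the lowest log2 fold change of the list (-1.87, adjusted p = 0.063 in limma). Cox7a1 and Cox8b, subunits of complex IV, stand in this list as well. Ucp1, the uncoupling protein, had a mean of 10.08 ± 0.29 in siAspa and 11.80 ± 0.24 in ntc (SD, n = 3 each; adjusted p = 0.0343 from limma). General adipocyte markers had a median of -0.22, with 7 of 11 lower and 0 higher by unadjusted p, and their summed signal was 14.86 to 15.04 in siAspa and 15.17 to 15.19 in ntc on the log2 scale. All 5 measured cycling cell markers were higher on every siAspa array than on any ntc array, beside 12.6% of all genes. Their summed signal was 12.49 to 12.55 in siAspa and 12.37 to 12.38 in ntc. Aurkb alone among them had an unadjusted p under 0.05 (difference 0.34, adjusted p = 0.259 in limma), and the others differed by 0.08 to 0.30. Of 11 preadipocyte and fibroblast markers, Cd34 (difference 0.38) and Dpp4 (0.31) lay higher and Pdgfra (-0.27) lower by unadjusted p, and none passed after adjustment in limma. Their summed signal, to which Vim and Dcn gave the most, overlapped between the groups (14.48 to 14.54 in siAspa, 14.46 to 14.52 in ntc). That of 6 macrophage markers, 5 of which lay under the median signal of all genes, was 8.57 to 8.66 in siAspa and 8.28 to 8.49 in ntc. Cd68, the 1 brighter macrophage marker, was also the only one with an unadjusted p under 0.05 (difference 0.34, adjusted p = 0.353), and the other 5 differed by -0.03 to 0.22. That of 6 muscle markers was 9.06 to 9.26 in siAspa and 9.28 to 9.35 in ntc. Des alone among them had an unadjusted p under 0.05 (difference -0.64, adjusted p = 0.106), and the other 5 differed by -0.05 to 0.16. The part of these marker values in the values of the assembly factors was not tested.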

How the data were processed

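The authors deposited log2 signals of 6 Affymetrix Mouse Gene 2.0 ST arrays, obtained by RMA (background correction, quantile normalization between arrays and probe set summary) in CarmaWeb. Its version and the probe set definition are not given in the sources used here. Of 41345 probe sets, 23521 are annotated to 1 gene, 1820 to several and 16004 to none. Probe sets were compared with lmFit and eBayes of limma 3.58.1 in R 4.3.3, without a block, two-sided, with Benjamini-Hochberg adjustment over all rows and a threshold of 0.05, after the study's methods. An exact permutation test of 3 against 3 arrays cannot go below 0.1 and was not used. The replicate numbers were not used as pairs. The members, lists and alternatives were chosen with earlier results of these data known. Array values are given for the 4 lowest p of complexes I and IV, the 3 lowest of complex III, all of complexes II and V, the highest fold change of complexes I and IV, and any other positive member with an unadjusted p under 0.05. The other factors are given by difference and interval. From other lists up to 3 genes with the lowest p were named. Cox7a1 and Cox8b were named as subunits, Vim and Dcn as large parts of a sum, and Atpif1 as a protein outside the subunits. Prdm16, Dio2, Cebpa, Fabp4, Adipoq and Retn were named for their array order. Smim4 and the order of arrays within a group were described after their values were seen. Alternatives were a replicate block, brighter or single-gene probe sets only, a robust prior, array medians subtracted, quantile normalization repeated, array weights, the mean of a gene's probe sets, and each array left out. The fit was tested on simulated data with changes larger than those of the factors, which does not show how often changes of their size would be called. The arrays carry no detection call, and their number limits the precision.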

Additional observations from a re-analysis of the deposited data

How the results depend on the processing

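No assembly factor passed an adjusted p of 0.05 under any of the 14 alternatives, and Atpaf2 came nearest (adjusted p = 0.053 with the mean of all probe sets of a gene, 0.0558 with single-gene probe sets only and with probe sets above the median signal, 0.0727 with a robust variance prior that follows the signal). The samples share replicate numbers only: deviations of same-numbered arrays correlated at 0.00, 0.02 and 0.00, and with a replicate block 9 factors were lower at an unadjusted p under 0.05, 8 of them among the 10. Leaving out 1 array gave 5 to 12 lower and 0 to 1 higher factors at an unadjusted p under 0.05 (the 1 was Lyrm7 without the third ntc array and Sdhaf4 without the second siAspa array). The medians near 0 turned with single arrays, between -0.08 and 0.13 for complex II and between -0.03 and 0.00 for complex III. So did Sdhaf1 (-0.22 to 0.03), Sdhaf2 (-0.08 to 0.13) and Ndufaf7 (-0.01 to 0.15). With array weights the median of complex II and the value of Sdhaf2 were both -0.01. The cause of the differences between arrays was not tested. Of the 36 factors, 24 kept 1 sign in all fits that held them. Over all probe sets, 30 were called lower and 48 higher, and with the robust prior 236 and 152. The paper reported more genes lower than higher after correction. Counted in probe sets, the main fit gave fewer calls and the reverse order, while the robust prior gave the order of the paper. The order of the counts thus changed with the variance prior. Restricting the fit to brighter probe sets left 35 factors, without Lyrm7.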
